A study of Mus musculus with 4 samples.

Results

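A set of 9 genes around the p53 response was followed in astrocytes deprived of oxygen and glucose, namely *Trp53* itself, its targets *Mdm2*, *Cdkn1a*, *Ccng1*, *Btg2* and *Phlda3*, and the growth arrest genes *Gadd45a*, *Gadd45b* and *Gadd45g*. They were taken by gene name from the non-control spots of the arrays, with every probe of each gene, which gave 9 of 29676 gene names, 11 of 39429 probes and 20 of 43020 spots. *Cdkn1a* had 3 probes and the other 8 genes had 1 each. The study compared astrocyte-enriched cultures (AECs) left untreated (n = 2) with AECs exposed to oxygen–glucose deprivation (OGD) for 15 h (n = 2), to find genes of astrocytes that respond to OGD, a culture model of the loss of blood supply. Both groups were primary cells from the cerebral cortex of newborn ICR mice. Mixed glial cells had been grown from several pups and treated with PLX3397, an inhibitor of the receptor CSF1R that microglia need to survive, before being reseeded in wells. OGD combined medium without glucose with hypoxia, and the untreated wells received neither. The methods describe the wells as separate cultures that did not share pups.

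The tumor suppressor p53 is a transcription factor that is kept scarce by the ubiquitin ligase Mdm2 and is held in check less tightly after DNA damage, hypoxia and other stress. It is controlled mainly at the protein level, and it switches on genes that stop the cell cycle, repair DNA or start apoptosis, together with *Mdm2* as its own inhibitor. The Gadd45 proteins are small acidic stress sensors that bind PCNA and the kinases Cdk1 and Map3k4, and besides p53 they are induced by other stress factors, *Gadd45b* mainly by NF-κB and TGF-β signaling.

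After 15 h of OGD, all 3 *Gadd45* genes rose, *Gadd45a* 7.04-fold, *Gadd45g* 6.37-fold and *Gadd45b* 4.91-fold relative to the 75th percentile of each array. *Mdm2* rose 1.68-fold and *Cdkn1a* 1.91-fold on that scale, whereas both fell when the arrays were scaled on spiked-in control RNA. *Btg2* and *Phlda3* fell slightly, by 1.33-fold and 1.27-fold, and both calls were lost with the methods' t-test, with no filter on dim probes and without either untreated array. *Trp53* and *Ccng1* did not pass the test. By the brightest probe of each gene, 7 of the 9 genes passed the test (limma, adjusted p under 0.05), beside 65.4% of the 20104 genes tested. Of the 9, 5 were called higher against 36.8% of all genes, and 2 were called lower against 28.6%. With a change of at least 2-fold required as well, 3 were called higher against 12.5%, and none was called lower against 15.5%. None changed over 10-fold, as 0.706% of all genes did upward and 0.582% downward. The median change of the 9 genes was 0.75 on the log2 scale, the value of *Mdm2*, beside 0.14 over all genes tested. With spike-in scaling the median was again that of *Mdm2*, -0.54, beside -1.15 over all genes. On that scale 3 of the 9 genes were called higher and 6 lower, beside 3.8% and 83.8% of all genes.

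**Figure D1:**
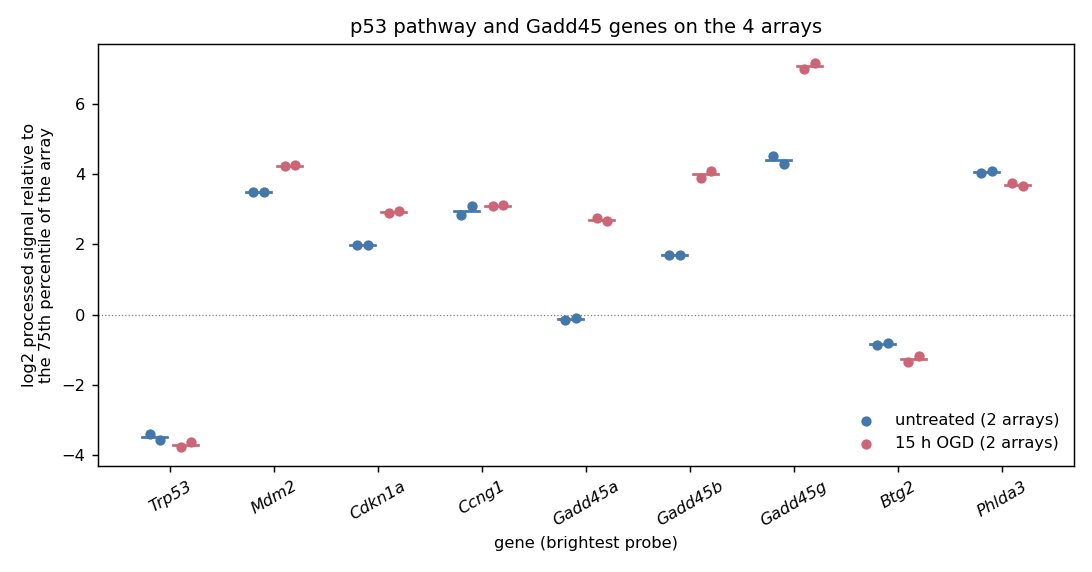
Normalized log2 signal of the brightest probe of each of the 9 genes (y axis, log2 processed signal relative to the 75th percentile of the array) on the 2 untreated arrays (blue) and the 2 arrays after 15 h of OGD (red), with a line at each group mean. The OGD means of *Gadd45a*, *Gadd45b* and *Gadd45g* lie 2.29 to 2.82 above the untreated means on the log2 scale, the points of *Ccng1* overlap, and the heights of different genes are not comparable because they come from different probes.

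The arrays were Agilent 1-colour arrays of 1 slide, read in 1 scan, and the signals are Feature Extraction's processed signals, a background-subtracted brightness. Untreated cultures had a 75th percentile signal of 2135 and 2164, and OGD cultures one of 887 and 776, so that it fell by 1.37 on the log2 scale. The mean of 9 spiked-in control probes, which detect RNA added in set amounts at labeling, fell by 0.08. Between 64.5% and 73.7% of the spots were well above background, no spot was saturated, and all 11 probes described here were well above background on all 4 arrays. The median change over all probes was 0.18 with 75th percentile scaling and -1.11 with spike-in scaling. On the spike-in scale 3.8% of all genes were called higher and 83.8% lower. The methods state that the same amount of total RNA was labeled for each array, so neither scale measures RNA per cell. Spike-in scaling gives signal relative to that amount of RNA, and whether RNA per cell changed was not tested. In bulk cultures fewer cells of a type cannot be told apart from less RNA per cell. With 2 arrays against 2, an exact permutation test could give no p below 0.333, so the calls rest on limma's spread, which is shared across probes.

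Of the cell type markers checked, all 10 astrocyte markers were well above background on all arrays, 6 of them were called higher and 1, *Sox9*, lower. The shares over all genes, against which these and the following counts are to be read, were 36.8% and 28.6%. Their summed level ran from 7.22 to 7.39 in untreated AECs and from 7.83 to 7.86 after OGD (log2 relative to the 75th percentile). Markers of oligodendrocyte lineage cells were called higher for 3 and lower for 4 of 9 genes, with summed levels of 4.62 to 4.63 and 4.22 to 4.32. Of the lower ones, *Sox10* was well above background on only 1 OGD array. For microglia 2 of 8 were called higher and 2 lower, with summed levels of 0.59 to 0.86 and 0.74 to 0.93. The neuronal markers were called higher for 2 and lower for 2 of 6, at 2.98 to 3.05 and 3.03 to 3.08. Only 4 of the 6 were well above background on all arrays. *Rbfox3*, called lower, was not so on either OGD array and entered the test through the untreated arrays, so its call is not independent of the filter. Of 7 fibroblast and endothelial markers, none of the 6 tested was called, and the 5 measured on all arrays had summed levels of 3.18 to 3.46 and 2.97 to 3.35. *Col1a1* was left out of that sum, and its change of -0.57 (limma adjusted p = 0.182) rests on 1 OGD array, because its spot on OGD replicate 1 was an outlier. *Cldn5* was not well above background on any array. The part of cell composition in the results on p53 and *Gadd45* genes was not tested.

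The promoters of the 3 *Gadd45* genes are shown because these genes rose together. Each window runs from 250 bases before to 50 bases after the RefSeq start site on GRCm38.p6, printed on the strand of the gene. Capitals mark matches, on either strand, to the p53 half-site, the hypoxia response core ACGTG, the E-box CACGTG (which contains that core), the cyclic AMP response element TGACGTCA, the C/EBP-ATF composite TTGCATCA, the octamer ATTTGCAT, the forkhead motif GTAAACA and the NF-Y motif CCAAT.
Gadd45a, chr6:67037358-67037657, minus strand: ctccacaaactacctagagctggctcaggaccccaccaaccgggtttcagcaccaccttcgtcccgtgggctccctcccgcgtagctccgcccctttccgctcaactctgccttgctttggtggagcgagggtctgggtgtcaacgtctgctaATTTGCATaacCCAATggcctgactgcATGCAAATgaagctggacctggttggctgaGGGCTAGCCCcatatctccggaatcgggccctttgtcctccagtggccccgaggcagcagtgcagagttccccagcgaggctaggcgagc
Gadd45b, chr10:80929841-80930140, plus strand: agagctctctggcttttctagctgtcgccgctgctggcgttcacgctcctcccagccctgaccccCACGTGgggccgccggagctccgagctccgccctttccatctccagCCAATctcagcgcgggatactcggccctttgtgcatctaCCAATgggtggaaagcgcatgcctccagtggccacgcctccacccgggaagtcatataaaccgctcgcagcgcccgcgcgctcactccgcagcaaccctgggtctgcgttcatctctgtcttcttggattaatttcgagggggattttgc
Gadd45g, chr13:51846425-51846724, plus strand: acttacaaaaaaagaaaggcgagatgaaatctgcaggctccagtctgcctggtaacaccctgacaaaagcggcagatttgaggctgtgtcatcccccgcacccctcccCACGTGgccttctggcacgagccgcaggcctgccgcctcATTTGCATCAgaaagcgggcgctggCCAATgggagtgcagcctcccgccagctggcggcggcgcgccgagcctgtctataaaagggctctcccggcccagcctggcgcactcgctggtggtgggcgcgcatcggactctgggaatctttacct

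Every one of the 3 windows held CCAAT, which 37.4% of all 32851 RefSeq promoter windows of this length hold. *Gadd45a* alone of the 3 held a p53 half-site, 40 bases before the start, a motif in 8.36% of windows. It also held the octamer at 97 and again at 70 bases before the start, on opposite strands, and the octamer is found in 1.74% of windows. The E-box stood in *Gadd45b* at 185 and in *Gadd45g* at 142 bases before the start, against 7.15% of windows. In *Gadd45g* the octamer at 103 bases before the start overlapped the C/EBP-ATF composite at 101, which occurs in 0.895% of windows. These matches describe the letters of the windows and do not show that a factor was bound. Sequence outside the windows was not searched, so a window without a motif does not show that the gene lacks one.

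*Gadd45a*, the member first described as a p53 target, had normalized log2 signals of -0.15 and -0.08 in untreated AECs and 2.73 and 2.67 after OGD. Its processed signal went from 1927 and 2046 to 5903 and 4932 although the OGD arrays were dimmer as a whole. Both OGD values lay far above both untreated values. The change was 2.82 on the log2 scale (limma SE 0.0814, adjusted p = 0.000729, 95% confidence interval 2.59 to 3.04), rank 242 from the top of 20104 genes. The probe lies at chr6:66985376-66985435 (mm9, minus strand).

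*Gadd45b*, a stress-induced inhibitor of the JNK kinase Map2k7, read 1.68 and 1.70 untreated and 3.89 and 4.08 after OGD. In processed signal these were 6858 and 7025 against 13160 and 13130. The closest pair of an OGD and an untreated array still differed by 2.19. Its change was 2.29 (SE 0.101, limma adjusted p = 0.000817, interval 2.01 to 2.58), rank 408. The probe lies at chr10:80394367-80394426 (mm9, plus strand).

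*Gadd45g*, first cloned as a cytokine response gene, read 4.50 and 4.29 untreated and 6.99 and 7.15 after OGD, with processed signals of 48400, 42470, 112600 and 110200 in that order. Neither group overlapped the other. The change of 2.67 (SE 0.12, limma adjusted p = 0.000847, interval 2.33 to 3.01) ranked 295. With quantile normalization it was 1.78 (adjusted p = 0.000822). Its probe lies at chr13:51943733-51943792 (mm9, plus strand).

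The direction of the *Gadd45* genes held on every scale tried. Scaled on the spiked-in probes, *Gadd45a* rose by 1.53, *Gadd45b* by 1.01 and *Gadd45g* by 1.38 (limma adjusted p = 0.000233, 0.000872 and 0.000304), on a scale where 3.8% of genes were called higher. Over all scalings, tests and left-out arrays, the change ran from 1.53 to 2.85 for *Gadd45a*, from 1.01 to 2.39 for *Gadd45b* and from 1.38 to 2.77 for *Gadd45g*. Relative to the median of all probes tested, the 3 genes stood 2.64, 2.12 and 2.49 higher in the same order.

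**Figure D2:**
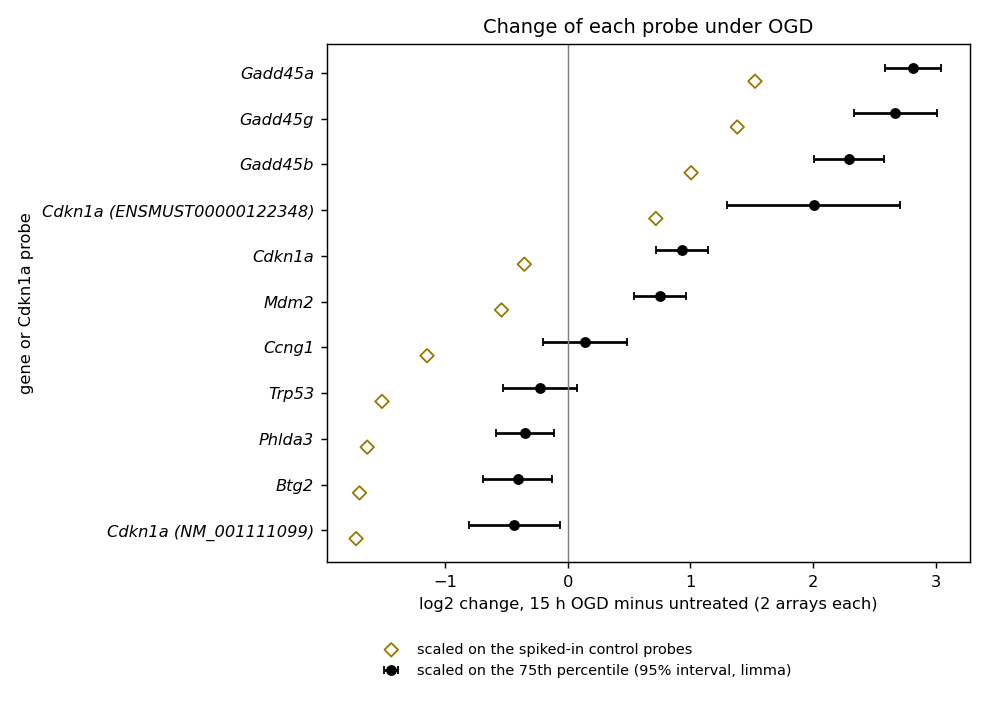
Log2 change of each of the 11 probes (x axis, 15 h of OGD minus untreated, 2 arrays each), with the arrays scaled on the 75th percentile (black points, bars are limma's 95% confidence intervals) or on the spiked-in control probes (open diamonds, no interval drawn); *Cdkn1a* without brackets is its brightest probe. The 3 *Gadd45* genes and the ENSMUST00000122348 probe of *Cdkn1a* stay above 0 on both scales, whereas *Mdm2* changes from 0.75 to -0.54 and the brightest *Cdkn1a* probe from 0.94 to -0.35.

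*Trp53* gave a dim signal, of 205 and 185 untreated and 65.6 and 63.0 after OGD. Its normalized log2 values were -3.38 and -3.55 untreated and -3.76 and -3.62 after OGD, so the groups did not overlap but were separated by less than the gap between the untreated arrays. Across all genes tested, 85.3% had groups that did not overlap, as had 8 of the 9 described here. The change of -0.23 (SE 0.107, interval -0.53 to 0.08) did not pass the test (limma adjusted p = 0.139), and it was 0.22 with normexp background correction and -1.51 with spike-in scaling. It was called lower with spike-in scaling (limma adjusted p = 0.000196) and with the 75th percentile taken over bright probes (-0.37, adjusted p = 0.0474). The probe is at chr11:69404204-69404263 (mm9, plus strand).

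*Mdm2* read 3.48 and 3.50 untreated and 4.22 and 4.25 after OGD. Replicates were close in both groups, and no OGD value was less than 0.72 above an untreated one. It rose by 0.75 (SE 0.0751, limma adjusted p = 0.00289, interval 0.54 to 0.96) relative to the 75th percentile, was 0.17 with quantile normalization (adjusted p = 0.155), and fell by 0.54 with spike-in scaling (adjusted p = 0.00617). Its processed signal was 23820 and 24490 untreated and 16570 and 14820 after OGD. Relative to the median of all probes it stood 0.57 higher. The probe is at chr10:117126010-117126069 (mm9, minus strand).

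*Cdkn1a* encodes p21, the inhibitor of cyclin-dependent kinases through which p53 stops the cell cycle. RefSeq gives the gene 2 start sites on GRCm38.p6, and both windows are shown, with that of *Mdm2*, because the *Cdkn1a* probes moved apart and because both genes are p53 targets that were called higher on the 75th percentile scale. Capitals mark the same motifs as above.
Cdkn1a, upstream start, chr17:29090729-29091028, plus strand: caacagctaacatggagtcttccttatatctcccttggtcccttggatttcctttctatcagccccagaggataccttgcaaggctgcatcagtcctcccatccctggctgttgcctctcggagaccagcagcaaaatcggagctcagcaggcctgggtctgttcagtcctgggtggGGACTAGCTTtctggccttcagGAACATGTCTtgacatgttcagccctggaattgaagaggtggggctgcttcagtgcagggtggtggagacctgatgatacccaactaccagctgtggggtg
Cdkn1a, downstream start, chr17:29093519-29093818, plus strand: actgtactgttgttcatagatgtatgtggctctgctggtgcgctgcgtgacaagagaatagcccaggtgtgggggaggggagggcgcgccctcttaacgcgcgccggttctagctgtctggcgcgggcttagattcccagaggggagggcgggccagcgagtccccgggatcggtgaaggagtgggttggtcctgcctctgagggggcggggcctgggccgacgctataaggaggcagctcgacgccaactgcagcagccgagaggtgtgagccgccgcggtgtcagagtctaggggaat
Mdm2, chr10:117710709-117711008, minus strand: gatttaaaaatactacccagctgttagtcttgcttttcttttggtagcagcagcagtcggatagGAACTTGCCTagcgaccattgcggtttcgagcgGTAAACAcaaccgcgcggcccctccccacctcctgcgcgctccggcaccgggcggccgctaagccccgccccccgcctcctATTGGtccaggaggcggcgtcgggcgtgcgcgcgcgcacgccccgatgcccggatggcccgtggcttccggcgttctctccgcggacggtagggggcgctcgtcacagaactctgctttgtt

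The upstream *Cdkn1a* window held 2 p53 half-sites, 73 and 51 bases before the start. Their spacing is within that of a full p53 site, and 0.0731% of all windows hold such a pair. Only exact matches were marked, so a neighbouring half-site with a mismatch is not shown. Which half-sites form a bound site was not tested. The downstream window held none of the motifs searched. Both windows are on the plus strand and the upstream one comes first, so its half-sites also lie before the downstream start. Sequence between the windows was not searched, and which start the half-sites act on was not tested. An empty downstream window therefore does not show that this start lacks p53 sites. In *Mdm2* a p53 half-site stood 186 and a forkhead motif 153 bases before the start, the latter in 3.65% of windows; the known p53-responsive promoter of *Mdm2* lies in its first intron, outside the window. Over the 10 windows of the 9 genes, 5 held a p53 half-site, the others being those of *Trp53*, *Ccng1* and *Gadd45a*. The cyclic AMP response element, in 1.79% of windows, was found only in that of *Btg2*, and the window of *Phlda3* held none of these motifs.

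The brightest *Cdkn1a* probe, designed on NM_007669 and printed 10 times on each array, lies farthest downstream, at chr17:29237377-29237436 (mm9). Its normalized signals were 1.98 and 1.99 untreated and 2.90 and 2.94 after OGD. Over the 10 spots the coefficient of variation was 2.59% to 3.30% on the untreated and 4.73% to 7.90% on the OGD arrays. This spread is technical and does not cover differences between cultures. The change was 0.94 (SE 0.0753, limma adjusted p = 0.00189, interval 0.72 to 1.15). It turned to -0.35 (adjusted p = 0.0263) with spike-in scaling, and in processed signal the probe went from 8419 and 8616 to 6634 and 5958.

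The probe designed on NM_001111099 lies farthest upstream, at chr17:29227986-29228045 (mm9). It read -1.93 and -1.91 untreated and -2.21 and -2.51 after OGD, so both OGD values were lower. Its change of -0.44 (SE 0.132, limma adjusted p = 0.0485, interval -0.81 to -0.06) was close to the threshold and lost its call without either untreated array or OGD replicate 2, in the replicate block, with normexp, quantile or median scaling, with the methods' t-test and with no filter on dim probes. The third probe, designed on ENSMUST00000122348 at chr17:29235299-29235358 (mm9), was dim, with processed signals of 29.6 and 33.7 untreated and 41.9 and 57.2 after OGD. It rose by 2.01 (SE 0.25, limma adjusted p = 0.00474), the least precise value of the 11 probes, and by 0.72 with spike-in scaling (adjusted p = 0.0332), but did not pass the methods' t-test (adjusted p = 0.0553).

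The probes of 1 gene share their arrays, so the difference between their changes is free of any scaling by a single factor per array. Relative to the brightest probe, the upstream one fell by 1.37 (SE 0.155, limma adjusted p = 0.00389, interval -1.79 to -0.95), and the third rose by 1.07 (SE 0.237, adjusted p = 0.025). The upstream probe lies 9331 bases from the brightest one and the third 2018 bases. Among 7194 such pairs of probes in 5604 genes, 44.8% were called, 19.1% lower and 25.6% higher than the brightest probe of their gene, so unequal probes were common on these arrays. The difference of the third probe was lost without untreated replicate 1 (0.99, adjusted p = 0.141) or untreated replicate 2 (1.15, adjusted p = 0.103). With the methods' t-test neither difference passed (adjusted p = 0.0614 for the upstream and 0.155 for the third probe). Which exon each probe lies in was not analysed here.

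**Figure D3:**
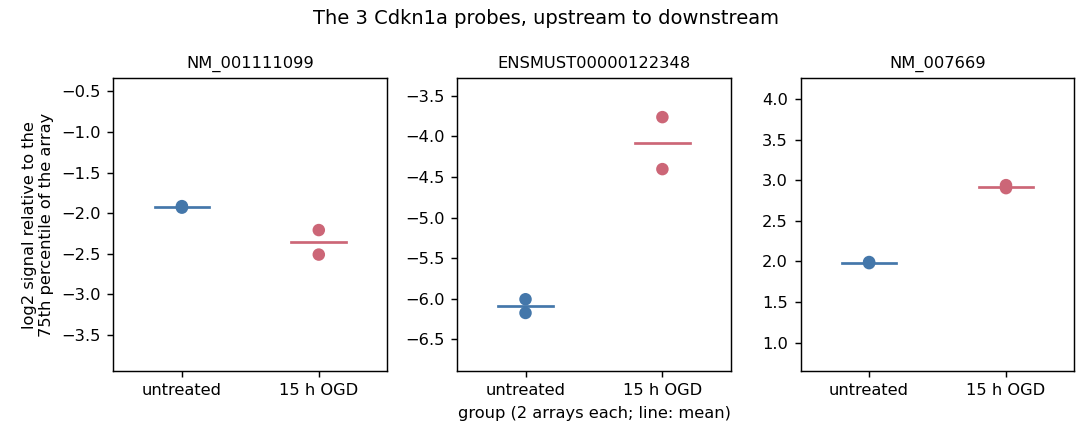
Normalized log2 signal (y axis, relative to the 75th percentile of the array) of the 3 *Cdkn1a* probes on the 2 untreated (blue) and 2 OGD arrays (red), with group means as lines, ordered from upstream to downstream; each y axis spans the same log2 range but sits at its own level. After OGD the upstream probe was lower by 0.44, and the middle and downstream probes were higher by 2.01 and 0.94, the downstream one turning to -0.35 with spike-in scaling.

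*Ccng1* encodes cyclin G1, which recruits phosphatase 2A to Mdm2. It read 2.82 and 3.09 untreated and 3.09 and 3.11 after OGD, so the groups overlapped. Its change of 0.14 (SE 0.122, interval -0.20 to 0.49) did not pass the test (limma adjusted p = 0.36) and was close to the median of all genes (0.14). It was -0.26 with quantile normalization, where it was not called, and -1.15 with spike-in scaling, where it was called lower (limma adjusted p = 0.00142). The probe is at chr11:40562427-40562486 (mm9, minus strand).

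*Btg2*, an antiproliferative gene of immediate early type whose product binds the CCR4-NOT deadenylase, read -0.87 and -0.81 untreated and -1.34 and -1.16 after OGD. Both OGD values were the lower ones. It fell by 0.41 (SE 0.101, limma adjusted p = 0.0286, interval -0.69 to -0.12), and by 1.70 with spike-in scaling. The call was lost without either untreated array, where the change was -0.44 and -0.38, with the methods' t-test (adjusted p = 0.0872) and with no filter on dim probes (limma adjusted p = 0.0535). The probe is at chr1:135972094-135972153 (mm9, minus strand).

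*Phlda3*, a p53 target that keeps Akt from the membrane, read 4.01 and 4.07 untreated and 3.75 and 3.65 after OGD. The groups did not overlap. Its fall of 0.35 (SE 0.084, limma adjusted p = 0.0274, interval -0.58 to -0.11) lost its call with the replicate block (adjusted p = 0.0651), with median scaling (0.0701), with no filter on dim probes (0.0565), with the methods' t-test (0.0534) and without untreated replicate 1, untreated replicate 2 or OGD replicate 2, with changes between -0.37 and -0.30. With spike-in scaling it was -1.63. The probe is at chr1:137665642-137665701 (mm9, plus strand).

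The genes of 5 related lists were set beside the 9. Of 109 genes tested, 45 were called higher (41.3%, beside 36.8% of all genes) and 35 lower (32.1%, beside 28.6%), with a median of 0.21. With spike-in scaling the counts were 11 and 86, beside 3.8% higher and 83.8% lower over all genes on that scale.

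Of 35 other p53 targets, 16 were called higher, 11 lower and 8 not called, with a median change of 0.25. Both ends of the list moved far. The secreted stress cytokine *Gdf15* rose by 3.53 on the log2 scale, the polo-like kinases *Plk3* 10.2-fold (3.35) and *Plk2* 5.28-fold (2.40), and the growth factor *Tgfa* 4.89-fold (2.29), the last from processed signals of 48.1 and 53.4 to 107 and 85.6. In contrast, *Sesn1*, a sestrin that restrains mTORC1, fell 14.5-fold (-3.86). *Ddit4l*, another mTORC1 inhibitor, fell 10.4-fold (-3.37), *Pidd1*, the scaffold of the PIDDosome, 9.79-fold (-3.29), and *Trp53inp1*, a cofactor of p53 and autophagy, 5.44-fold (-2.44), although its other probe rose by 0.67. With normexp background correction *Pidd1* fell by 2.32 on the log2 scale. All 8 passed at a limma adjusted p of 0.00158 or lower by their brightest probe.

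Of 27 regulators and relatives of p53, 12 were called higher, 7 lower and 8 not, with a median of 0.21. The 3 largest falls of the list were of the DNA damage kinases *Atr* (-1.54), *Chek2* (-1.24) and *Prkdc* (-1.21). The other *Atr* probe gave -1.07 and was not called (limma adjusted p = 0.0607), and *Prkdc* fell by 0.65 with normexp background correction. For *Chek2* the call was lost with normexp background correction (-0.07, limma adjusted p = 0.582) and with the methods' t-test. The deacetylase *Sirt1* (1.19) and the inhibitor of p53 *Ppp1r13l* (1.13) rose, with values of -0.09 and -0.16 under spike-in scaling. The p53 relative *Trp63* gave 1.41 by its brightest probe (limma adjusted p = 0.00149), and 0.12 with spike-in scaling (adjusted p = 0.334), whereas its other probes gave -2.38 and 0.39, so its direction depends on the probe. Likewise *Trp73* gave 0.21 (adjusted p = 0.182), and -2.87 and -1.39 by the others. *Mdm4*, the partner of Mdm2 that blocks p53, gave -0.01 by its brightest probe (adjusted p = 0.963) and 1.56 by the other (adjusted p = 0.0027).

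Among 23 of 24 cyclins, cyclin-dependent kinases and their inhibitors that were tested, 6 were called higher, 9 lower and 8 not, with a median of 0.17. *E2f2*, a factor that drives S phase genes, fell 15.7-fold (-3.97), or by 2.77 on the log2 scale with normexp background correction. By contrast the inhibitor *Cdkn1c* (1.27), the cyclin *Ccna1* (1.18) and *Pcna* (0.89), the sliding clamp that p21 and Gadd45 proteins bind, rose, although all 3 were below 0 with spike-in scaling (-0.02, -0.11 and -0.40) and *Pcna* was 0.21 with quantile normalization (limma adjusted p = 0.111). *Cdkn1b*, which encodes p27, gave 0.01 by its brightest probe (limma adjusted p = 0.941), -0.34 by the other (adjusted p = 0.0244), and -1.28 by the brightest with spike-in scaling.

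Of 15 kinases that act with Gadd45 proteins and other genes named for growth arrest and DNA damage, 6 were called higher, 6 lower and 3 not, with a median of -0.12. *Ddit3* (also known as Gadd153) rose 6.83-fold (2.77) and *Ppp1r15a* (Gadd34) 9.21-fold (3.20); both belong to the integrated stress response. On the kinase side *Map3k4*, the kinase that Gadd45 proteins activate, fell by 0.92, *Map2k6* by 1.78 (by 0.98 with normexp background correction) and *Mapk14*, the p38α kinase, by 1.28, whereas the other *Mapk14* probe gave 0.49. *Mapk8*, which encodes JNK1, rose by 2.49, and its other probes gave 2.31 and 0.06.

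Of 9 tested relatives and partners of *Btg2*, *Ccng1* and *Phlda3* (11 listed), 5 were called higher, 2 lower and 2 not, with a median of 1.21. The 2 not called, named after their values were seen, were *Cnot7* (-0.22) and *Cnot8* (-0.40), which encode deadenylases of the CCR4-NOT complex that Btg and Tob proteins bind and are not paralogs of the 3 genes. *Phlda1* rose 6.61-fold (2.72) and *Btg3* 4.37-fold (2.13, or 1.44 with quantile normalization), where *Phlda3* and *Btg2* themselves had fallen. The *Btg2* relatives *Tob1* (-0.70) and *Tob2* (-0.47) fell, the latter losing its call without either untreated array and with the methods' t-test. *Btg4* and *Phlda2* were not well above background on enough arrays to be tested.

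**Figure D4:**
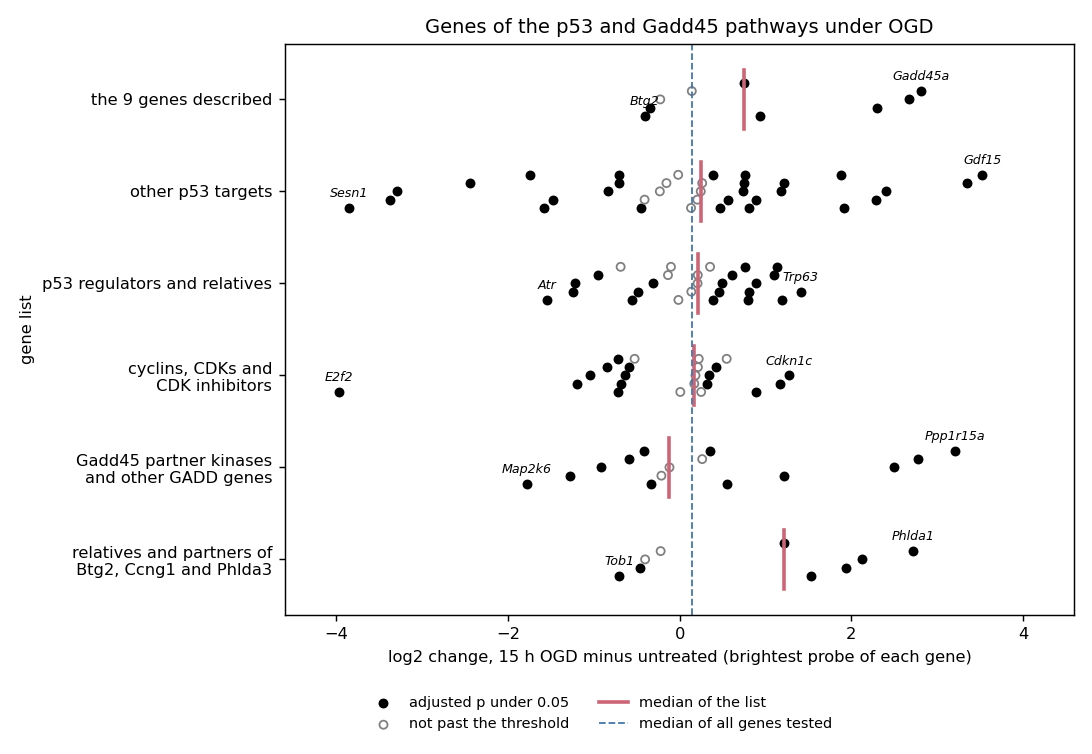
Log2 change after 15 h of OGD (x axis, brightest probe of each gene, 75th percentile scaling) of the genes of 6 lists (rows), filled where the limma adjusted p was under 0.05 and open otherwise, with the list median as a red line and the median of all genes tested (0.14) as a dashed line; the lowest and highest gene of each list are named. The other p53 targets run from -3.86 (*Sesn1*) to 3.53 (*Gdf15*), and with spike-in scaling 11 of the 109 genes of the 5 pathway lists were called higher and 86 lower, beside 3.8% and 83.8% of all genes.

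The genes whose profile over the 4 arrays was most like each of the 9 were found by Euclidean distance on normalized log2 values centred on the untreated mean, over 17592 genes. For *Gadd45a* these were *Rnu2-10* and *Stc2* (distances 0.06 and 0.08), for *Gadd45b* *Nrg1* and *Ifrd1* (0.06 and 0.09), and for *Gadd45g* *Slamf9* and *Arrdc4* (0.08 and 0.09). Within a distance of 0.2 lay 26, 47 and 20 genes for the 3 *Gadd45* genes. For *Mdm2* and *Cdkn1a* there were 1292 and 1063, so their small changes were shared by many genes. The nearest to *Mdm2* were *Prpf38b* and *Psma7*, and to *Cdkn1a* the transcript ENSMUST00000117247.1 and *Med13*. *Stk3* and *Susd4* were nearest to *Trp53*, *1700003M07Rik* and *Loxl4* to *Ccng1*, *Camkmt* and *Nadsyn1* to *Btg2*, and *Bicd1* and *Nelfcd* to *Phlda3*, with 498, 413, 620 and 851 genes within 0.2.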

How the data were processed

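Gene expression was measured in 2 untreated and 2 OGD-treated cultures on 1-colour (Cy3) Agilent mouse arrays. Per the file headers, the authors extracted intensities with Agilent Feature Extraction 11.5.1.1, which subtracted background and detrended each array without scaling between arrays; the deposited series table held the same intensity values (largest relative difference 0). Probe positions are those of the array design on mm9.

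Outlier and control spots were left out, spots of a probe were averaged, and log2 of the processed signal minus the 75th percentile of each array was tested. A probe entered the test if flagged well above background in both replicates of the untreated or the OGD group; 28258 probes were tested with limma 3.58.1 (R 4.3.3), with Benjamini-Hochberg adjustment over all and a call at 0.05. A gene was counted by its brightest probe (20104 genes). Array data have no counts, so the 2 arrays per group limit the precision. Motifs were searched on both strands of RefSeq promoters, with up to 13 bases between paired half-sites.

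The genes and lists were chosen with earlier results of these data known. Besides the 9 genes, the text names list genes called with at least a 4-fold change, else up to the 3 largest per direction, *Ddit3*, *Ppp1r15a*, *Mdm4*, *Cdkn1b*, *Trp63* and *Trp73* in any case, and the 2 nearest profiles of each gene. The comparison of probes within a gene was added after the data were seen. The alternatives were the methods' t-test, a trended robust prior, a replicate block, normexp with offset 50, quantile, median, bright-probe and spike-in scaling, other filters and fold limits, outlier spots kept, a mean over probes, the series table and each array left out. The labels do not say whether same-numbered arrays share anything besides the number.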

Additional observations from a re-analysis of the deposited data

How the results depend on the processing

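The 3 *Gadd45* genes and the upward calls of *Mdm2* and *Cdkn1a* kept their direction and call under all alternatives other than the fold limits, except *Mdm2* with quantile normalization (0.17) and both genes with spike-in scaling. Main counts were 5 genes higher and 2 lower, and 45 and 35 in the pathway lists. Spike-in scaling gave 3 and 6, and 11 and 86. A limit of 2-fold gave 3 and 0, and 23 and 15; over 10-fold gave 0 and 0, and 2 and 3. The 2 lower calls became 0 with the methods' t-test and without a filter on dim probes, and 1 with median scaling. With each array left out, the counts ranged from 5 to 5 higher and 0 to 2 lower, and from 32 to 47 and 22 to 37 in the lists; the lowest counts of lower calls came without untreated replicate 1 (0 and 22) or 2 (0 and 22). With the replicate number as a block, 5 genes were higher and 1 lower, since *Phlda3* lost its call. Deviations of same-numbered arrays had a correlation of -0.06 over 28163 probes. With 2 arrays per group this rests on 1 contrast in each group, so it cannot show whether the numbers pair the arrays.

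Signs turned with spike-in scaling for *Mdm2* (-0.54), *Cdkn1a* (-0.35), *Ccng1* (-1.15), *Sirt1* (-0.094), *Ppp1r13l* (-0.16), *Trp73* (-1.08), *Cdkn1c* (-0.015), *Ccna1* (-0.11), *Pcna* (-0.40) and *Cdkn1b* (-1.28). Normexp turned *Trp53* (0.22), *Ccng1* (-0.0017) and *Mdm4* (0.36), and quantile normalization *Ccng1* (-0.26), *Mdm4* (0.052) and *Cdkn1b* (-0.26). The 75th percentile over bright probes gave -0.0059 for *Ccng1* and -0.14 for *Cdkn1b*, and keeping outlier spots gave -0.0003 for *Cdkn1b*. The mean over probes turned *Trp63* (-0.19), *Mdm4* (0.77), *Trp73* (-1.35) and *Cdkn1b* (-0.17). Leaving out arrays moved *Mdm4* between -0.32 and 0.29 and *Cdkn1b* between -0.057 and 0.073. The cause was not tested. The median change of all probes was 0.55 with normexp, 0.01 with quantile, 0.19 with median and 0.03 with bright-probe scaling.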
